A study of Danio rerio with 8 samples.

Results

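The wild-type larva of a zebrafish upf1 study was described here from its own libraries alone. They are the 4 wild-type libraries, WT1 to WT4, among 8 samples. The other 4 samples, larvae homozygous for a nonsense mutation in upf1, enter no value. Each library was made from polyA-selected RNA of whole-body larvae of the TLEK strain at 5 days post fertilization, with a stranded kit. The study asked about upf1 in lymphocyte development, and its wild types served as the control. The labels give neither the number of larvae in a library nor whether the libraries come from separate clutches, so their spread may be partly technical.

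A whole larva mixes every tissue, and the level of a gene reflects both how many cells make it and how much each makes. At this age a zebrafish has hatched, swims with a trunk of fast muscle, sees, and is about to live on food in place of yolk. Its pancreas makes digestive enzymes, its lens is filled with crystallins, and its embryonic red cells carry embryonic globins. Fewer cells of a type and less RNA per cell cannot be told apart in such libraries.

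The libraries held 87715388 (WT1), 96104507 (WT2), 87994091 (WT3) and 86872276 (WT4) counts on 31953 genes. Levels are given in CPM, counts scaled to a common depth with TMM factors, which set the typical gene equal between libraries. The TMM factors were 1.01, 0.939, 1.04 and 1.02. A long transcript gives more counts than a short one and no lengths were used, so CPM is a share of counts and no order of molecules is read from it. In all 4 libraries 24811 genes had at least 1 count and 22344 had at least 10, while 4262 were at 0 in all. A mean of at least 1 CPM was reached by 19726 genes, of at least 100 CPM by 1465 and of at least 1000 CPM by 110.

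A small set of genes took much of the counts. The single highest gene of each library held 1.91% of counts in WT1, 2.46% in WT2, 1.91% in WT3 and 1.91% in WT4. The 10 genes with the highest mean share over the 4 libraries held between 9.7% (WT4) and 10.9% (WT2). The 100 highest by the same measure held 30.8% ± 1.37 (SD, n = 4). In counts pooled over the 4 libraries, 507 genes made up 50% and 7280 made up 90%. WT2 had the largest share in the 100 genes of highest mean share, 32.8%, while the other 3 lay at 30.2% or below.

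Contractile and calcium-handling genes of muscle headed the list, many of them of fast fibres. actc1b, a striated muscle actin, stood at 18901 CPM in WT1, 26201 in WT2, 18377 in WT3 and 18716 in WT4, a mean of 20549 ± 3774 (SD, n = 4). WT2 lay far above the other 3 for this gene, which were close together. myhz1.1, a fast myosin heavy chain, stood at 12339, 14690, 14912 and 13443 CPM in WT1 to WT4. atp2a1, the calcium pump that lets fast fibres relax, averaged 9994 ± 886 CPM, and mylpfa, a fast regulatory myosin light chain, 7609 ± 1052 CPM (SD, n = 4 each). The parvalbumins pvalb2 (6673 ± 952 CPM) and pvalb1 (5718 ± 774 CPM), which buffer calcium in fast fibres, and the muscle creatine kinases ckmb (5163 ± 938 CPM) and ckma (5136 ± 1010 CPM) were also among the 25 highest. The near-identical tandem myosins (myhz1.1, myhz1.2, myhz2) may exchange reads, so their single values are uncertain.

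The highest 25 also held genes of translation, respiration, protein folding, skin and connective tissue. eef1a1l1 and eef2b, elongation factors of translation, averaged 12395 ± 1760 and 6473 ± 700 CPM. MT-CO1, a mitochondrially encoded subunit of cytochrome c oxidase, stood at 10703, 10787, 11027 and 10464 CPM in WT1 to WT4. With TMM scaling it was the steadiest of the 25, with a coefficient of variation (CV, SD over mean) of 2.16%. krt4, a keratin of the skin surface, stood at 7444, 6294, 8323 and 6855 CPM. The constitutive chaperones hspa8 and hsp90ab1 averaged 6815 ± 652 and 4323 ± 288 CPM, and col1a1a, a fibrillar collagen, 3591 ± 180 CPM (SD, n = 4 each).

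**Figure D1:**
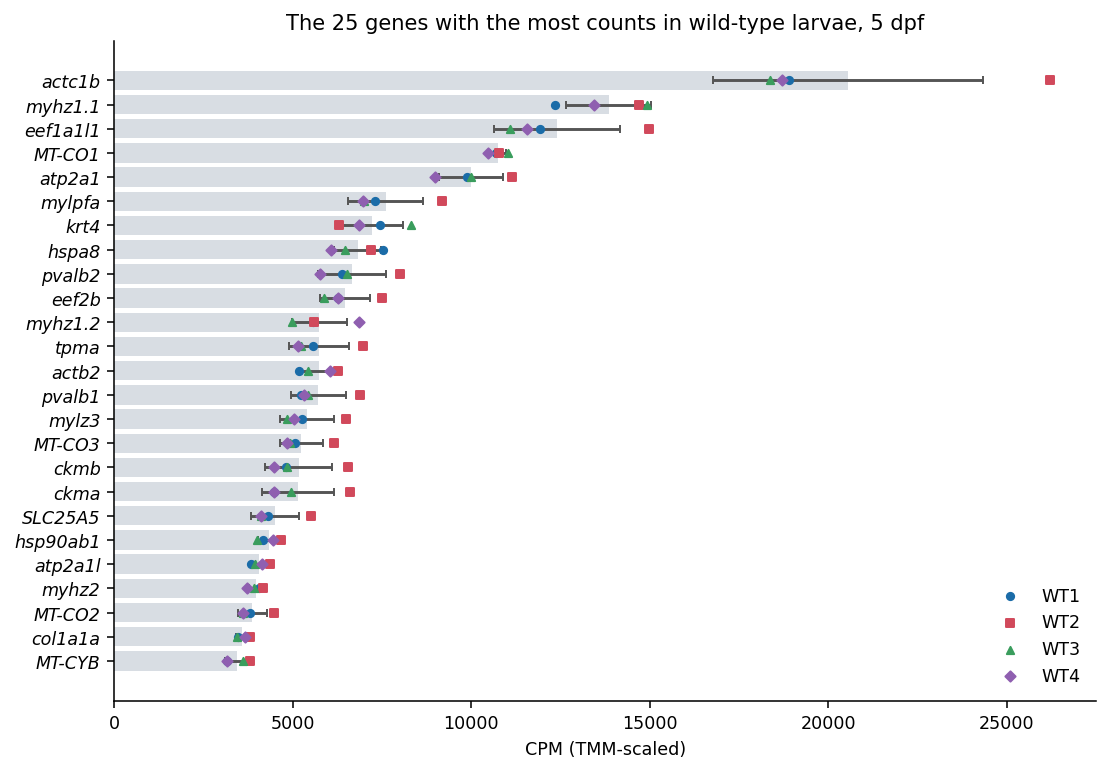
Bars give the mean CPM of the 25 genes with the most counts over 4 wild-type libraries, error bars the SD, and points the single libraries. Muscle, translation and mitochondrial genes fill much of the list, and the point for WT2 is the highest for most of them, as for actc1b at 26201 CPM.

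To place tissues, 43 lists of marker and process genes were summed. Of 1291 distinct matched genes 1289 had at least 1 count and 1187 a mean of at least 1 CPM. The lists differ in size and overlap in part, so their sums describe the libraries and do not rank tissues. The fast muscle list took 11.7% ± 0.752 of all counts with 39 genes, 19 of them among the 100 highest. It also holds genes of striated muscle at large, such as actc1b. It lacks the muscle actins acta1a and acta1b, tnni2a.2, ttn.1 and ttn.2, which matched no gene. Cytoplasmic ribosomal proteins took 7.15% ± 0.843 with 89 genes, and the 13 mitochondrially encoded genes 3.28% ± 0.128. Keratins and epidermal junction genes took 2.25% ± 0.253, exocrine pancreas 1.95% ± 0.35, liver 1.6% ± 0.0949, fibrous matrix 1.26% ± 0.0364 and lens 1.18% ± 0.166 (SD, n = 4 each).

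**Figure D2:**
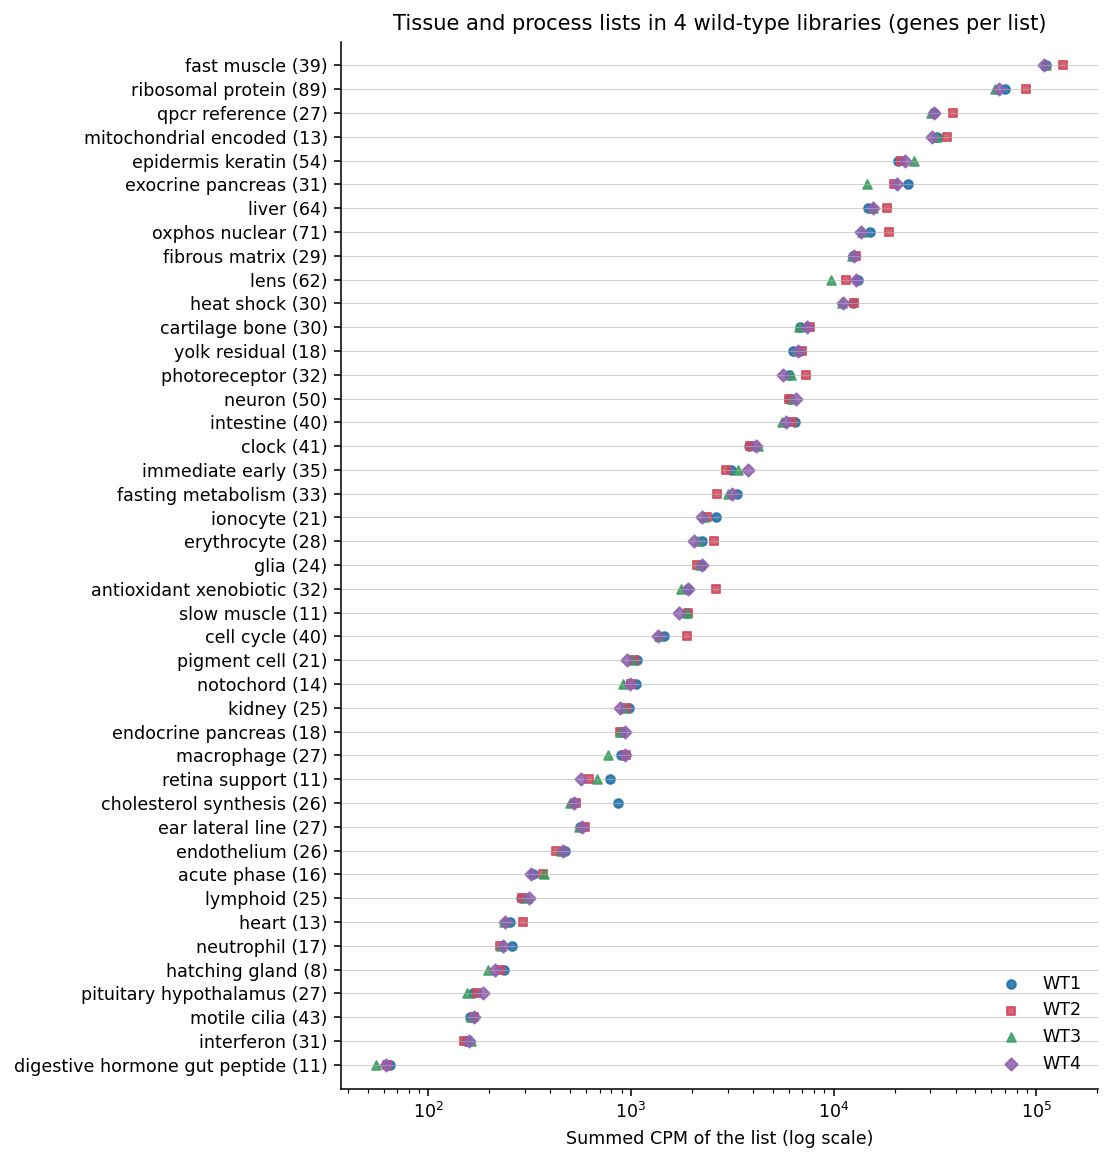
Each row is a list with its number of matched genes in brackets, and points give its summed CPM in each wild-type library on a log scale. The sums run from about 61.0 CPM for gut peptides to 116933 CPM for fast muscle, and for most lists the 4 points nearly coincide.

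Digestive organs were represented by secreted products and by genes of fatty acid binding and peptide uptake. In the exocrine pancreas ctrb1, a chymotrypsinogen, stood at 3206, 2814, 2132 and 2922 CPM in WT1 to WT4, and try, a trypsin precursor, at 2763, 2520, 1844 and 2776 CPM. WT3 was the lowest library for both. In the liver list apoa1b, an apolipoprotein of high-density lipoprotein, averaged 3070 ± 293 CPM. tfa, which carries iron as transferrin, stood at 1054, 1786, 1215 and 1264 CPM, and fabp10a, the liver fatty acid binding protein of fish, at 450, 811, 429 and 558 CPM. Both were highest in WT2. In the intestine list apobb.1, an apolipoprotein B used in lipoprotein export, averaged 1518 ± 196 CPM, and slc15a1b, a peptide transporter, 218 ± 38.1 CPM (SD, n = 4 each). Both apoa1b and apobb.1 are also in the list of yolk genes, so their counts cannot be assigned to a single tissue.

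The eye gave counts from lens and retina. Among cone opsins opn1lw2 (red) stood at 1252, 1626, 1442 and 1056 CPM in WT1 to WT4, opn1mw1 (green) at 1060, 1422, 1074 and 973 CPM, and opn1sw2 (blue) at 627, 766, 688 and 621 CPM. All 3 were highest in WT2 and lowest in WT4. The photoreceptor list left out the opsins rho, whose symbol several genes bear, and opn1sw1, which matched no gene. The list also lacks further entries that matched no gene, such as rhol, arr3a, gngt2a and grk7a. Keeping shared symbols in raised its mean sum from 6276 to 8870 CPM. Of the further tandem green opsins opn1mw3 had a mean of 0.05 CPM and opn1mw4 was at 0 in all 4 libraries, which allows up to 3 counts a library, or 0.0339 CPM in WT1. Reads shared between such copies may have been assigned to one of them.

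The sums of some lists had small CVs. The summed neuron list, with synaptic and ion pump genes such as snap25a (280 ± 8.65 CPM) and atp1a3a (489 ± 37.6 CPM), stood at 6023, 6003, 6298 and 6529 CPM in WT1 to WT4. The smallest CV of a summed list was that of fibrous matrix at 1.83%, with 12399, 12862, 12363 and 12609 CPM, followed by motile cilia at 2.15%, endocrine pancreas at 2.6% and glia at 2.78%. A sum evens out the spread of its members, whose own median CV was 11.6% in fibrous matrix, 13.2% in motile cilia and 9.93% in glia. col2a1a, the main collagen of cartilage, averaged 2259 ± 248 CPM and mbpa, a myelin protein, 98.2 ± 7.35 CPM (SD, n = 4 each).

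The erythrocyte list summed to 2243 ± 228 CPM and the lymphoid list to 298 ± 13.8 CPM (SD, n = 4 each). The erythrocyte sum included much from genes other than globins, such as prdx2 (mean 407 CPM) and tmod4 (mean 214 CPM). It left out the beta globins hbbe1.3, hbbe2, hbba1 and hbba2, which matched no gene. The embryonic alpha globin hbae3 stood at 559, 730, 551 and 578 CPM, and the embryonic beta globin hbbe1.1 at 344, 240, 302 and 173 CPM. The adult alpha globins hbaa1 and hbaa2 averaged 0.0139 and 0.0195 CPM, below the 0.0339 CPM that 3 counts are worth in WT1. The globin copies are close in sequence, so reads may have moved between them. Among lymphoid genes RAG1, the recombinase that builds antigen receptors, stood at 10.1, 14.4, 11.3 and 8.91 CPM in WT1 to WT4, and ptprc, a surface phosphatase of all white cells, at 5.84, 5.41, 5.98 and 5.66 CPM. cd8a, a coreceptor of mature T cells, averaged 0.00283 CPM, and dntt, the template-free polymerase of receptor joining, 0.00277 CPM. The 2 members of that list with the most counts, tox (127 ± 8.3 CPM) and GATA3 (65.5 to 75.4 CPM), are transcription regulators that other tissues express as well. mpx and lyz, granule enzymes of neutrophils and macrophages, averaged 26.2 ± 4.0 and 34.5 ± 5.22 CPM (SD, n = 4 each).

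Hatching enzymes, yolk precursors and gonadotropin subunits, products of earlier or later stages, averaged under 1 CPM. The yolk and hatching gland lists also hold other genes, such as apoa1b in the yolk list, and their sums averaged 6649 and 218 CPM. The hatching enzymes he1.1, he1.2 and he1.3 averaged 0.0223, 0.0166 and 0.00283 CPM. The yolk precursor genes of adult female liver ranged from 0.00277 CPM (vtg4) to 0.243 CPM (vtg7). The gonadotropin subunits lhb and fshb averaged 0.0223 and 0.0306 CPM, while growth hormone (gh1) stood at 13.2, 22.7, 6.44 and 18 CPM and thyroglobulin (tg), the thyroid hormone precursor, at 13.2, 8.95, 19 and 27.4 CPM. The libraries thus differed several-fold for the last 2 genes, each made by a single gland.

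Nearly all genes varied between the wild-type libraries by more than counting alone gives. Of 19726 genes with a mean of at least 1 CPM, 17555 (89.0%) exceeded counting error in a chi-square index of dispersion with Benjamini-Hochberg adjustment over all of them. The size of the spread was modest for most. The highest library was at least 2-fold above the lowest for 1333 genes (6.76%), and for 329 of the 11390 genes with at least 10 CPM (2.89%). edgeR put the common biological coefficient of variation at 0.194. The median CV was 15.2% at 1 to 10 CPM, 9.79% at 10 to 100, 10.4% at 100 to 1000 and 14.8% above, so the genes with the most counts were not the steadiest.

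**Figure D3:**
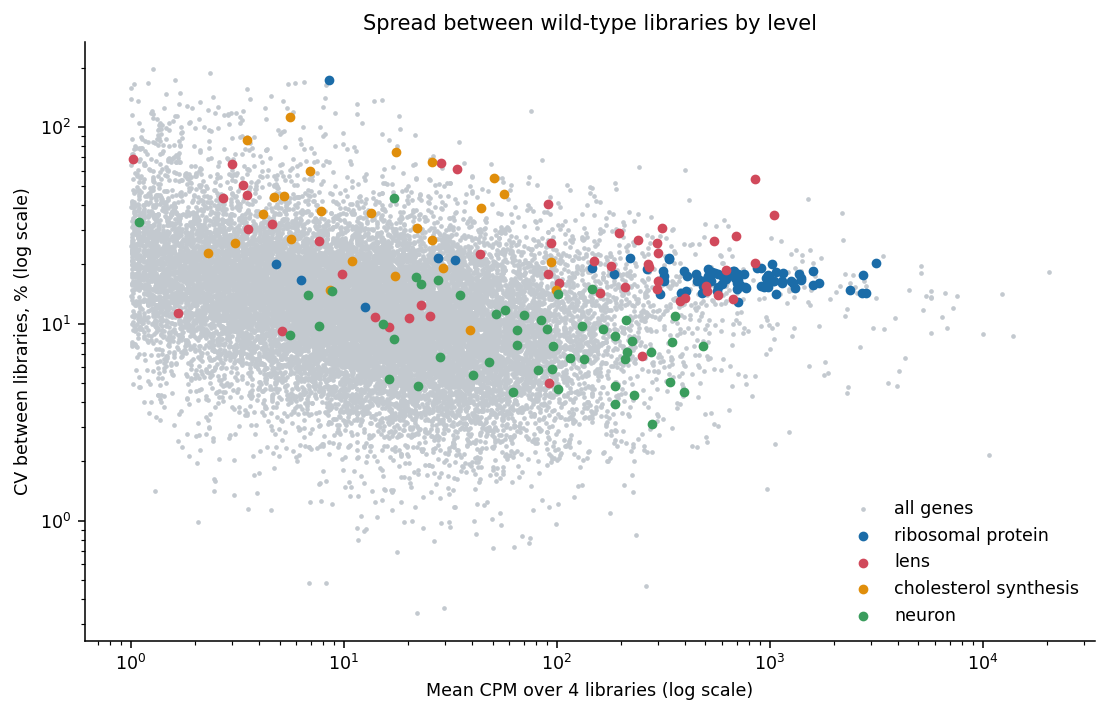
Each point is a gene with its mean CPM over 4 wild-type libraries and its CV between them, both on log scales, with 4 lists coloured. Most ribosomal protein genes form a tight band near 16.8% (their median CV), with rps11l far above it. Neuron genes lie lower with a median of 8.32%. Many cholesterol synthesis and lens genes lie higher, with medians of 36.1% and 19.9%.

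One library stood apart from the others. WT2 was the highest library for 34.4% and the lowest for 32.2% of the 19726 genes, while WT1, WT3 and WT4 were highest for 21.5%, 21.4% and 22.7%, and lowest for 21.2%, 23.5% and 23.0%. Under plain library totals, without TMM factors, WT2 was highest for 20.8% and lowest for 46.5%. Among the 110 genes above 1000 CPM WT2 was highest for 75.5%. Pairs that hold WT2 differed beyond counting error for 59.7% to 62.4% of genes, and pairs without it for 42.6% to 51.9%. Without WT2 the common coefficient fell to 0.1751, against 0.193 to 0.2036 when another library was left out. In 3 libraries a 2-fold range is harder to reach. It was found for 775 genes without WT2, against 958 to 1016 without another library. TMM raised WT2 relative to its plain library total. Under plain totals the median gene of WT2 was at -0.11 relative to the median of the other 3 on the log2 scale, and at 0.01 with TMM.

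Genes of protein synthesis were high together in WT2. Summed ribosomal protein genes stood at 70130 CPM in WT1, 89143 in WT2, 62807 in WT3 and 65353 in WT4. Of 89 members 85 were highest in WT2, against 34.4% of all genes, 45.5% of those at 100 to 1000 CPM and 75.5% above. WT3 was the lowest library for 69, against 23.5% of all genes and 32.3% of those at 100 to 1000 CPM. The median member was 0.46 above the median of the other libraries on the log2 scale in WT2, against 0.01 for all genes. rplp0, a protein of the ribosomal stalk, stood at 2953, 4098, 2666 and 2911 CPM, and rpl3, which lies near the catalytic centre, at 2754, 3405, 2474 and 2661 CPM. Under plain library totals the same number, 85 of 89, were highest in WT2, against 20.8% of all genes. The exceptions with TMM include rps11l at 1.14, 1.27, 1.11 and 30.6 CPM in WT1 to WT4, and rpl7l1, highest in WT1.

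Nuclear genes of oxidative phosphorylation behaved alike, with sums of 15055, 18825, 13773 and 13712 CPM. Of 70 members 67 were highest in WT2 with TMM, against 34.4% of all genes, and 65 under plain totals, against 20.8%. atp5b, the catalytic subunit of ATP synthase, stood at 1590, 2049, 1424 and 1477 CPM. Mitochondrially encoded genes moved less evenly. MT-CO3 stood at 5070, 6147, 4917 and 4834 CPM, while with TMM scaling MT-CO1 and MT-ND5 stayed within a CV of 2.16% and 1.45%. NDUFB2, a complex I subunit, went the other way, with 46.9, 10.8, 42.7 and 26.4 CPM.

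Proliferation genes were also high in WT2. Of 40 members 38 were highest there, against 34.4% of all genes, or 34 under plain library totals, against 20.8%. Their sum stood at 1448, 1894, 1374 and 1354 CPM in WT1 to WT4. pcna, the sliding clamp of DNA replication, stood at 125, 182, 116 and 99.0 CPM, rrm1, a subunit of ribonucleotide reductase, at 57.8, 88.6, 57.8 and 58.6 CPM, and ccnb1, a mitotic cyclin, at 18.4, 34.3, 16.3 and 21.9 CPM. WT4 was the lowest library for all 6 mcm helicase genes of the list, a subset named after its values were seen and set beside 23.0% of all genes, such as MCM4 at 60.1, 74.4, 56.8 and 34.7 CPM and mcm5 at 46.3, 54.7, 42.9 and 27.3 CPM. The mitotic kinase gene plk1 stood at 31.7, 48.8, 28.3 and 39.4 CPM. rrm2, the partner of rrm1, was nearly missing in WT1 and WT2 (0.0339 and 0.0333 CPM) and stood at 5.9 CPM in WT3 and 11.2 CPM in WT4.

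Muscle, photoreceptor and antioxidant genes were often highest in WT2 as well. Fast muscle genes summed to 111192, 135961, 111255 and 109325 CPM, with 28 of 39 members highest in WT2, against 34.4% of all genes. That count depends on scaling, with 18 of 39 under plain library totals, against 20.8%. By level, WT2 was highest for 45.5% of all genes at 100 to 1000 CPM and for 75.5% above, and the median fast muscle member had 966 CPM. Photoreceptor genes, without rho, opn1sw1 and the further unmatched entries, were highest in WT2 for 22 of 30 members with TMM (34.4% of all genes). Under plain totals 17 of 30 were (20.8%). Antioxidant and drug-metabolism genes were highest in WT2 for 25 of 32, or 22 under plain totals, such as gstp1, a glutathione transferase, at 161, 254, 119 and 147 CPM and sod1, a superoxide dismutase, at 84.7, 125, 75 and 81.4 CPM. UGT1A1, a glucuronosyl transferase, stood at 100, 251, 127 and 157 CPM.

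Members of other lists were often lowest in WT2. It was the lowest library for 27 of 50 neuron genes and 21 of 34 immediate-early and stress-hormone genes, against 32.2% of all genes. The same held for 19 of 41 clock genes and 17 of 31 genes of fasting and feeding metabolism. Under plain library totals these 4 counts were 34, 27, 26 and 20, against 46.5%. The last list mixes genes of fasting, such as trim63a and pck1, with genes of fat synthesis, such as fasn. Its count therefore gives no direction for fasting. trim63a, a ubiquitin ligase of muscle wasting, stood at 144, 64.9, 119 and 123 CPM in WT1 to WT4, and pck1, the entry enzyme of gluconeogenesis, at 819, 620, 731 and 768 CPM. WT4 was the highest library for 28 of 50 neuron genes and 19 of 34 immediate-early and stress-hormone genes, against 22.7% of all genes. In the immediate-early and stress-hormone list fkbp5, a target of the glucocorticoid receptor, stood at 426, 556, 652 and 726 CPM, and KLF9, another such target, at 128, 111, 180 and 216 CPM. Their order between libraries was not the same, with WT1 lowest for fkbp5 and WT2 lowest for KLF9.

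**Figure D4:**
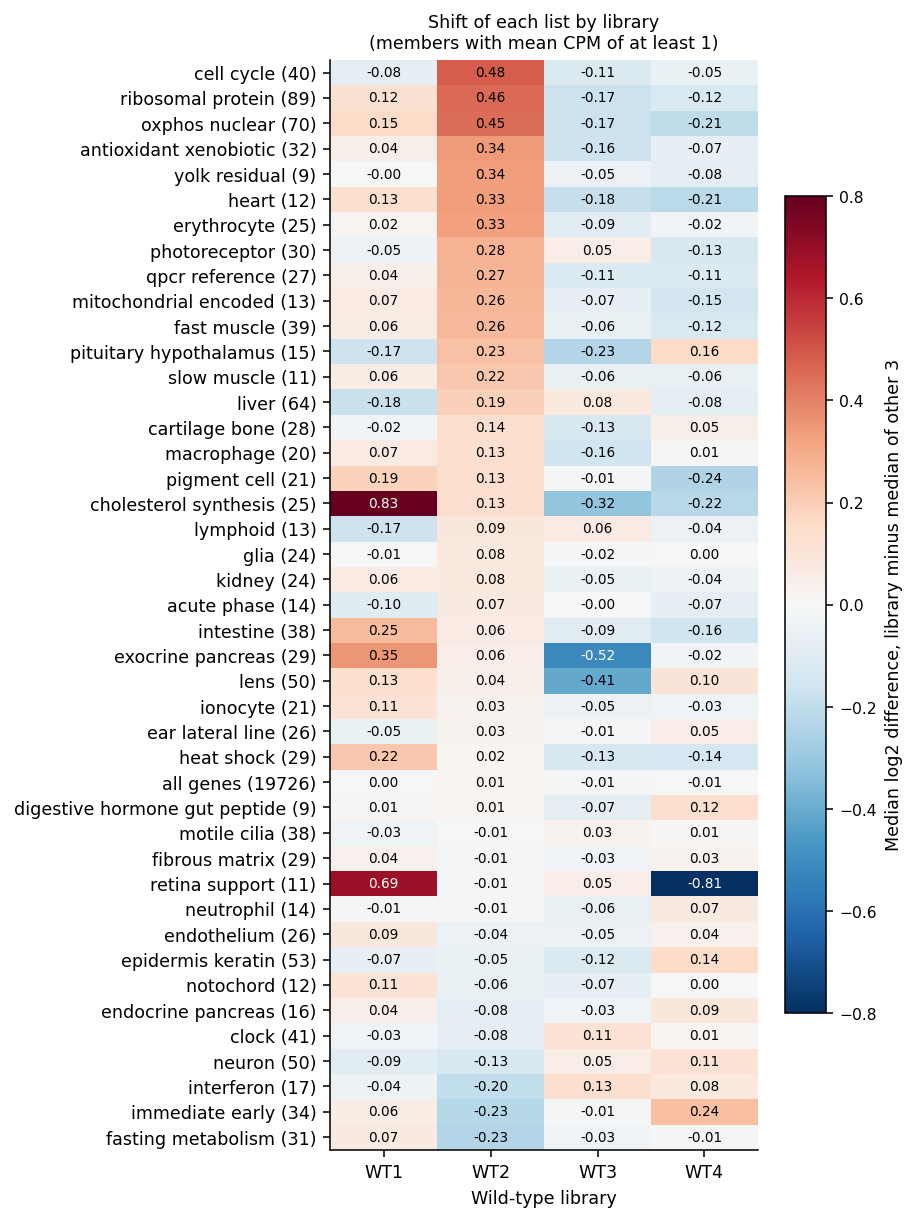
Each cell gives, for 1 list and 1 wild-type library, the median over members of log2 CPM in that library minus the median of the other 3, for lists with at least 8 members (numbers in brackets). WT2 is high for proliferation, ribosomal protein and respiratory genes, WT1 for cholesterol synthesis, and WT3 is low for exocrine pancreas and lens, while all genes together lie near 0.

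Summed levels differed by at least 1.5-fold between libraries for 2 of the 43 lists, cholesterol synthesis (1.73-fold) and exocrine pancreas (1.58-fold). Without WT1 neither list reached it, and without WT3 cholesterol synthesis alone did. Cholesterol synthesis genes summed to 866 CPM in WT1, 535 in WT2, 501 in WT3 and 522 in WT4. WT1 was the highest library for 20 of 25 members, against 21.5% of all genes, and 13 of 25 (52.0%) varied at least 2-fold, against 6.76% of all genes. HMGCS1, the HMG-CoA synthase, stood at 95.1, 47.9, 42.5 and 41.1 CPM in WT1 to WT4. hmgcra, the rate-limiting reductase, stood at 89.7, 44.6, 23.1 and 45.4 CPM.

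Enzymes further along the sterol pathway showed the widest range. sqlea, a squalene epoxidase, stood at 14.9, 2.14, 2.84 and 2.37 CPM, lss, which closes the sterol rings, at 7.85, 3.03, 1.29 and 1.84 CPM, and cyp51, a sterol demethylase, at 50.1, 21.5, 9.17 and 22.8 CPM. msmo1, a sterol oxidase, stood at 37.4, 13.0, 8.76 and 11.7 CPM. All 4 were highest in WT1, and the other 3 libraries lay close together for sqlea but not for cyp51. insig1, a sterol-dependent brake on the pathway, was highest in WT1 as well (66.9, 26.4, 46.0 and 37.5 CPM). srebf2, the transcription factor that drives the pathway, varied less, with 121, 93.1, 95.6 and 88.8 CPM. NPC1L1, the intestinal cholesterol importer, also stood highest in WT1, at 162 CPM against 66.4, 98.1 and 82.6 CPM in WT2 to WT4.

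Exocrine pancreas genes set WT3 apart on the low side. The sums were 23168, 19838, 14621 and 20614 CPM in WT1 to WT4. WT3 was the lowest library for 21 of 29 members, against 23.5% of all genes, and WT1 the highest for 18 of 29, against 21.5%. By level, WT3 was lowest for 32.3% of all genes at 100 to 1000 CPM and for 54.5% above. The median exocrine pancreas member had 352 CPM. cpa5, a carboxypeptidase, stood at 2113, 1849, 1218 and 1820 CPM, ela3l, an elastase, at 1386, 930, 720 and 1029 CPM, and amy2a, an amylase, at 590, 375, 347 and 410 CPM. PTF1A, the transcription factor of acinar cells, stood at 1.85, 2.0, 1.4 and 1.48 CPM. pla2g1b, a pancreatic phospholipase, was low in both WT3 and WT4 (44.5 and 44.3 CPM, against 96.8 in WT1 and 69.3 in WT2).

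Lens genes were also low in WT3, which was the lowest library for 28 of 50 members, against 23.5% of all genes. Their sum stood at 13265, 11462, 9715 and 12872 CPM in WT1 to WT4. Members differed in which library was low. The beta crystallin crybb1 stood at 1259, 261, 714 and 1195 CPM and crybb1l1 at 1330, 584, 921 and 1382 CPM, both lowest in WT2, while cryba4, another beta crystallin, was lowest in WT3 (726, 687, 544 and 741 CPM). The gamma crystallins crygm2d1 at 304, 449, 259 and 234 CPM and crygm2d18 at 16.5, 61.3, 38.8 and 19.2 CPM were highest in WT2, while crygm2d14 was highest in WT3 (58.5, 104, 111 and 105 CPM). BFSP1, a filament protein of lens fibres, stood at 44.7, 5.71, 21.0 and 43.0 CPM and HSF4, a lens transcription factor, at 3.89, 1.11, 2.63 and 3.17 CPM, both lowest in WT2. The crygm2d genes are near-identical copies, so the value of each single copy is uncertain.

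Some retinoid-recycling genes of the eye varied together. In the list of retina support genes 6 of 11 (54.5%) varied at least 2-fold, against 6.76% of all genes, and WT4 was the lowest library for 8 of 11, against 23.0% of all genes. rpe65a, the isomerase of the visual cycle, stood at 142, 63.7, 110 and 54.7 CPM in WT1 to WT4. rgra and rgrb, opsins of the retinal pigment epithelium, stood at 30.5, 15.4, 26.4 and 11.6 CPM and at 44.2, 16.7, 35.7 and 15.3 CPM. WT1 and WT3 were the 2 higher libraries and WT2 and WT4 the 2 lower ones for these 3 genes. When genes of at least 10 CPM were split at their widest gap, 2.59% showed this grouping. Of those with a 2-fold range 3.65% did.

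Further retinoid genes went with them in part. rdh5, a retinol dehydrogenase, stood at 15.2, 8.48, 12.1 and 6.12 CPM, and rlbp1b, a retinal-binding protein, at 26.5, 13.7, 16.7 and 6.89 CPM. irbp, the retinoid carrier between photoreceptors and pigment epithelium, stood at 115, 78.8, 71.5 and 44.8 CPM. Other members of the list did not share the pattern, such as rpe65b (8.7, 10.8, 8.8 and 8.72 CPM) and rlbp1a (22.4, 26.9, 23.6 and 23.2 CPM), and neither did gnat2, a cone transducin, at 587, 662, 577 and 584 CPM. In the pigment cell list WT4 was the lowest library for 12 of 21 members, against 23.0% of all genes, such as tyrp1b, a melanin enzyme, at 144, 138, 114 and 95.4 CPM.

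**Figure D5:**
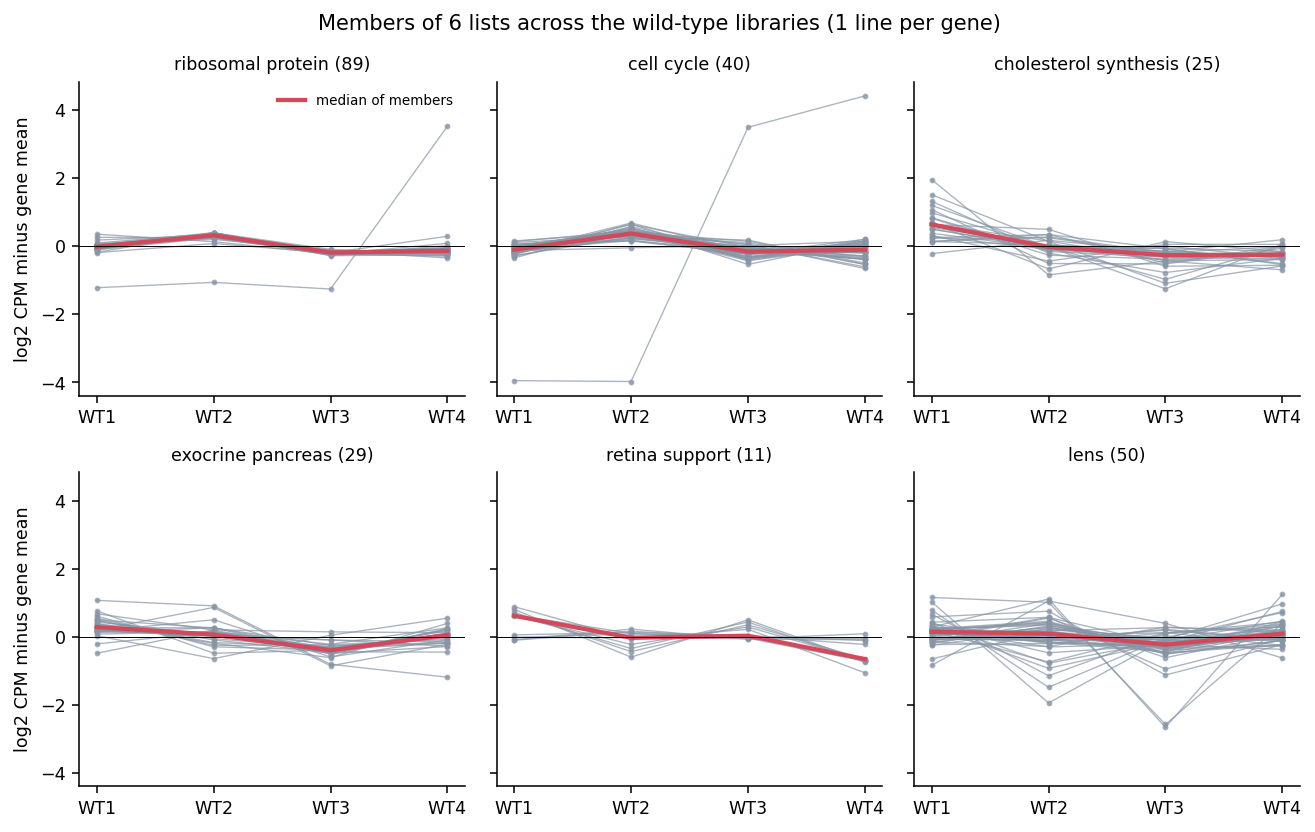
Each thin line is a gene with a mean of at least 1 CPM, drawn as log2 CPM minus its mean over the 4 wild-type libraries, and the thick line is the median of the list. Most members lie above their mean together in WT2 for ribosomal protein and cell cycle genes and in WT1 for cholesterol synthesis. The lines far from the rest are rrm2 in the cell cycle panel and rps11l in the ribosomal protein panel.

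The summed epidermal list was highest in WT3 (20777, 21537, 24926 and 22627 CPM in WT1 to WT4) through a few keratins with many counts. WT3 was the highest library for 9 of 53 members, against 21.4% of all genes, and WT4 for 22, against 22.7%. krt5 stood at 2748, 3240, 4494 and 3186 CPM in WT1 to WT4, krt91 at 1994, 2318, 2921 and 2325 CPM, and cyt1l at 463, 567, 756 and 603 CPM. Not all members followed, since krtt1c19e, a basal skin keratin, stood at 723, 1377, 1110 and 1330 CPM. krt93 was on in WT1 and WT4 (8.08 and 5.36 CPM) and had 0 and 0.0329 CPM in WT2 and WT3.

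Across the 11390 genes with at least 10 CPM, 329 had a 2-fold range. When each was split at its widest gap between libraries on the log2 scale, WT2 alone was low for 67 (20.4%) and alone high for 55 (16.7%). WT1 alone was high for 37 (11.2%), WT3 alone low for 31 (9.42%) and WT4 alone low for 29 (8.81%). Over all 11390 genes the same 5 patterns held 16.6%, 20.3%, 6.6%, 5.69% and 5.25%. A single library stood apart for 79.6% of the 329 and for 73.9% of all 11390. WT1 with WT4 stood above WT2 with WT3 for 17 of the 329 (5.17%) and for 2.42% of all 11390.

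The 25 most variable genes, ranked by the SD of log2 CPM, included genes that were all but missing from some libraries. Of the 11390 genes averaging at least 10 CPM, 6 had under 0.2 CPM in 1 library or more and at least 10 in another. The limits for single libraries were set after the values were seen. si:dkeyp-1h4.8 had 1, 3618, 0 and 1377 counts in WT1 to WT4, and zgc:92590 had 3873, 8, 1510 and 3. si:ch211-114l13.11 had 10, 2846, 2691 and 3896 counts. FH with the identifier ENSDARG00000103908 had 10, 2945, 1239 and 2206, and ENSDARG00000099056, with no symbol in the sources used, had 1369, 3877, 1334 and 7. The libraries near 0 differed between these genes, with WT1 alone for si:ch211-114l13.11 and FH, and WT4 alone for ENSDARG00000099056.

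Both genes named TGM1, after a transglutaminase that cross-links skin proteins in mammals, shared 1 pattern. ENSDARG00000102692 stood at 25.6, 0.0443, 0.0658 and 20.8 CPM in WT1 to WT4, and ENSDARG00000005913 at 40.8, 0.643, 0.406 and 31.0 CPM. They bear the same name and may share reads. CRISP3 was likewise higher in WT1 and WT4 (17.8 and 17.0 CPM) than in WT2 and WT3 (3.45 and 3.43 CPM). The opposite order was seen for opn1mw2, a green cone opsin, at 7.37, 20.9, 25.9 and 7.6 CPM, for C22H10orf76 at 23.6, 53.7, 64.2 and 18.9 CPM, and for zgc:111983 at 83.7, 199, 211 and 80.2 CPM.

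Some acute-phase and complement genes were high in WT2. crp5, of the C-reactive protein family, stood at 19.7, 212, 26.4 and 43.7 CPM in WT1 to WT4. crp2 stood at 1.79, 28.4, 1.23 and 1.54 CPM and c7b, a component of the membrane attack complex, at 7.06, 35.9, 6.61 and 11.0 CPM. Other genes of that kind did not follow. hp, haptoglobin, which binds free haemoglobin, averaged 22.8 ± 1.44 CPM (SD, n = 4), and hpxa, hemopexin, which binds free haem, was highest in WT3 (5.53, 17.6, 39.2 and 24.5 CPM). c9, the last complement component, was also highest in WT3, at 116, 169, 270 and 154 CPM. The acute-phase list as a whole stood at 328, 369, 373 and 320 CPM. WT2 was the highest library for 5 of its 14 members, near the 34.4% of all genes.

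A few notochord and cartilage genes were higher in WT1 than elsewhere, named here after their values were seen. cmn, calymmin of the notochord sheath, stood at 25.2 CPM in WT1 against 2.53, 2.75 and 2.07 CPM in WT2 to WT4. tbxta, the notochord transcription factor Brachyury, stood at 3.62 against 0.177, 0.263 and 0.102 CPM. matn3a, a matrilin, stood at 18.9 against 1.76, 0.833 and 0.316 CPM, and col9a1b, a type IX collagen chain, at 45.5 against 19.6, 17.9 and 17.3 CPM. ngs, a notochord gene, stood at 33.4, 10.6, 1.61 and 0.824 CPM. Other genes of both lists did not share this, such as col2a1a, lowest in WT3 and WT1 (2061, 2555, 2046 and 2373 CPM), and ntd5 at 41.3, 53.9, 38.1 and 41.9 CPM. The cartilage and bone list summed to 6841, 7606, 6734 and 7397 CPM, and the notochord list to 1058, 1002, 915 and 985 CPM. WT1 was the highest library for 8 of 28 cartilage and bone members and 6 of 12 notochord members, against 21.5% of all genes. The matrix metalloproteinases MMP9 (47.0, 16.6, 21.9 and 22.0 CPM) and mmp13a (16.9, 4.67, 5.32 and 7.26 CPM), in neither list, were also highest in WT1.

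Further variable genes lay in several organs. tmprss3a, a membrane serine protease, stood at 73.3, 36.3, 3.17 and 26.9 CPM in WT1 to WT4, and hephl1b, a copper oxidase of the hephaestin family, at 1.89, 37.7, 22.9 and 39.7 CPM. blvrb, biliverdin reductase B, stood at 22.9 CPM in WT2, 1.35 in WT3 and 10.4 in WT1, with WT4 close to WT1. mdh1ab, a cytosolic malate dehydrogenase, stood at 76.7, 10.8, 74.7 and 60.7 CPM, low in WT2 alone, as was si:dkey-238c7.12 at 387, 45.5, 340 and 207 CPM. The last gene inside the 25 was si:dkey-193p11.2, with an SD of log2 CPM of 1.11, and the first outside was aep1 with 1.08.

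At the other end 20 genes with at least 100 CPM had a CV of at most 2.09%, against a median of 10.7% over the 1465 genes at that level. fubp1, a single-strand nucleic acid binding protein, stood at 263, 265, 265 and 263 CPM in WT1 to WT4, a CV of 0.467%. khdrbs1b and hnrpdl, RNA-binding proteins of splicing, averaged 178 ± 1.93 and 207 ± 3.15 CPM. tardbpb, of the TDP-43 family, averaged 132 ± 2.01 CPM, sfpq, a splicing factor, 226 ± 3.83 CPM, and snrnp200, a spliceosomal helicase, 139 ± 2.9 CPM. mapk3, a signalling kinase, averaged 121 ± 1.6 CPM, cltcb, a clathrin heavy chain, 232 ± 4.69 CPM, and MT-ND5 969 ± 14.1 CPM (SD, n = 4 each). The first gene outside had 2.11%. These 20 were chosen for their spread in these libraries, and 2 to 8 of them were among the 20 steadiest when 1 library was left out. Under plain library totals none of the 20 was.

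Genes in common use as references for quantitative PCR were compared in the same way. Of 27 such genes 16 had at least 100 CPM. None of these was among the 20 steadiest of the 1465 genes at that level, a place few genes can hold. Their CVs lay between percentile 6.76 (ywhaz) and percentile 88.7 (rplp0) of the 1465, with gapdhs at 33.1, actb2 at 40.1 and actb1 at 55.6. WT2 was the highest library for 25 of the 27, against 34.4% of all genes, and for 19 under plain totals, against 20.8%. By level, with TMM, WT2 was highest for 45.5% of all genes at 100 to 1000 CPM and for 75.5% above. The reference genes rplp0, rpl8, rpl13a, RPL11 and rps18 are also in the ribosomal protein list. ywhaz, a 14-3-3 adaptor, had the smallest CV of the 27 at 3.39% (207, 223, 219 and 222 CPM in WT1 to WT4). lsm12b followed at 5.16%. The actins actb2 and actb1 had 8.99% and 11.9%, gapdh 9.8% and eef1a1l1 14.2%. rpl13a and rplp0 had 17.7% and 20.3%, above the median of 10.7% for genes of at least 100 CPM. b2m stood at 2.41, 4.83, 3.26 and 3.18 CPM, with a CV of 29.7%.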

How the data were processed

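The counts table was deposited by the authors as whole-number counts per gene, not normalized. Per the submitters' processing notes the build was GRCz10 and featureCounts was among the tools. Neither the aligner for the counts nor the gene annotation or strand setting is stated there, which leaves reads of overlapping and antisense genes possibly shared. The 4 wild-type columns were used and the other 4 left out. Gene symbols came from the deposited splicing tables (12446 genes) and a name table (14122), and 5385 genes had none.

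Counts were scaled with TMM (edgeR 4.0.16, R 4.3.3), with a prior count of 0.5 on the log2 scale. Dispersion was fitted with an intercept only. Spread beyond counting error was a chi-square index of dispersion with 3 degrees of freedom and Benjamini-Hochberg adjustment at 0.05 over genes with a mean of at least 1 CPM. Scripts were tested on simulated data. Intervals, floors (3 counts) and these tests cover counting error only. Of 1410 list entries 1170 matched 1 gene, 9 were name patterns, 23 matched several genes and were left out, and 208 matched none.

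Members and lists were chosen with earlier results of these data known. Named genes are the 25 highest, the 25 most variable (mean of at least 10 CPM), the 20 steadiest (at least 100 CPM), the 4 highest members of each list, the 4 most variable members of lists whose sum ranged at least 1.5-fold, the 4 genes farthest up or down in each library, and the reference genes. Further list members were named after their values were seen, as examples. No p-value is given. DESeq2 1.42.0 size factors, plain library totals, other filters and leaving out each library were tried as alternatives. Some genes that these rules select are not reported here.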

Additional observations from a re-analysis of the deposited data

Results flagged for a closer look

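A library was singled out when its gap to the nearest other library exceeded Dixon's critical share of the range of all 4, a limit that chance passes in about 1 in 20 groups. Among 19726 genes 1244 (6.31%) passed it, and for 55.2% of these the library was WT2. Of the 43 list sums 5 passed. Fast muscle stood at 135961 CPM in WT2, above 109325 to 111255 CPM in the other 3 libraries. Reference genes stood at 39056 CPM in WT2, above 30092 to 31395 CPM elsewhere, and antioxidant and drug-metabolism genes at 2633 CPM in WT2, above 1773 to 1905 CPM. Cholesterol synthesis genes stood at 866 CPM in WT1, above 501 to 535 CPM. The sum of slow muscle genes stood at 1731 CPM in WT4, below 1890 to 1900 CPM. Their members did not share this, since WT4 was the lowest library for 3 of 11, against 23.0% of all genes. smyhc1, the member with the most counts, stood at 947, 791, 1034 and 795 CPM in WT1 to WT4.

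Of the 25 genes with the most counts 4 passed, each high in WT2. actc1b stood at 26201 CPM there, mylpfa at 9173 CPM, pvalb1 at 6873 CPM and SLC25A5, an ADP/ATP carrier of mitochondria, at 5509 CPM. In the other 3 libraries SLC25A5 stood at 4106 to 4310 CPM. WT2 was also the deepest library, with 96104507 counts against 86872276 to 87994091, and its part in these values was not tested.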

How the results depend on the processing

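Leaving out 1 library at a time gave 22461 to 22608 genes with at least 10 counts in every library (22344 with all 4), 30.1% to 31.0% of counts in the 100 highest genes (30.8%), 0 to 2 lists with a 1.5-fold range (2, and 0 without WT1 or 1 without WT3), 775 to 1016 genes with a 2-fold range (1333) and 14457 to 16482 beyond counting error (17555), fewer in part because fewer libraries enter. Of the 25 most variable genes 16 to 19 stayed on the list, and of the 20 steadiest 2 to 8. A list had 1 library highest or lowest for over 50% of its members in 25 to 33 lists (24 with all 4), where 3 libraries make this easier to reach.

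A 2-fold range was found for 7479 genes with no filter and for 329 at 10 CPM or more, and a 1.5-fold range for 4853. At 10 CPM or more 10806 genes exceeded counting error, since fewer genes were tested. Without each list's highest member 4 lists had a 1.5-fold range. Of the 20 steadiest genes 0 stayed under plain library totals, 7 by tagwise dispersion and 2 at 10 CPM or more, and 5 of the 25 most variable at 1 CPM or more, where lower genes enter. DESeq2 size factors changed no summed list beyond its SD (43 of 43), nor did plain totals. Leaving out a library moved 2 sums beyond their SD, glia and endocrine pancreas, both without WT2. Without its highest member 37 sums moved, such as that of the epidermal list, which fell from 22467 to 15238 CPM, and 6 did not. Keeping shared symbols in, an alternative chosen after the data were seen, moved 5 of 18 sums. No paired analysis was possible because no groups were compared. Shares per transcript length and promoter motifs were not run.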
